A study of Rattus norvegicus with 42 samples.

Results

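Late culture of rat metanephric mesenchyme in the presence of the ANX fraction was compared with middle culture in the same fraction. The late arrays were the 4 arrays of explants harvested on days 5 and 7, and the middle arrays were the 4 from days 3 and 4, together 8 of the 42 arrays of the series. They were sorted into groups by the inducer and the day in their titles, and the comparison was chosen with earlier results of these data known. Mesenchyme was microdissected from kidneys of rat embryos at day 13.5 and freed from the ureteric bud with trypsin, DNase and pins. Both groups were cultured on collagen-coated transwell filters in DMEM/F12 with T3, prostaglandin, dexamethasone, selenium, transferrin, insulin, a recombinant FGF and a recombinant TGF, and both held ANX, so by the labels they differed in the day of harvest. The content of ANX is not stated in the labels. The rest of the series was fresh mesenchyme, mesenchyme cultured for 1 or 2 days without inducer, ANX cultures of days 1 and 2, and cultures with LIF or NGAL harvested on the same 6 days as ANX. Each day had 2 biological replicates. Whether these came from separate litters or cultures is not stated, so p-values measure the spread between these samples.

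The metanephric mesenchyme gives rise to the epithelium of the nephron. In the embryo, signals from the ureteric bud cause mesenchymal cells to condense, to switch on Wnt4, Pax8 and Lhx1, and then to form polarised vesicles joined by E-cadherin that elongate into glomerular, proximal, loop and distal segments. Cells that take the epithelial path build adherens junctions, desmosomes and tight junctions and sort pumps and channels to opposite faces, while stromal, vascular and blood cells of the explant do not.

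Values are log2 intensities from the robust multichip analysis (RMA) of Affymetrix rat arrays, and a difference of 1 on this scale is a doubling. Each of 14218 genes was read from its probe set of highest mean, and 11388 genes were tested, those with a group mean above log2 5.79 (an intensity of 55.2) in at least 1 of the 21 groups. A value below 5.79 is called below the signal threshold here. Wt1 and Pax2, transcription factors that mark nephron-forming mesenchyme, were present on all 8 arrays and lay between 10.15 and 11.23 and between 8.39 and 9.66. Six2, Cited1, Osr1 and Foxd1 had no probe set assigned to a single gene and were not analysed here. A control transcript added to the RNA, dap, had a log2 ratio of 3' to 5' signal of 0.85 to 1.17 on 6 of the 8 arrays, 1.78 on day 4 replicate 2 and 2.20 on day 7 replicate 2. The same ratio for beta-actin, a transcript of the sample itself, was 0.755 to 0.891 on those 6 arrays. On day 4 replicate 2 it was 1.387 and on day 7 replicate 2 it was 1.566.

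In all, 143 genes differed between late and middle ANX culture at a Benjamini-Hochberg adjusted p under 0.05 (limma), of which 117 were higher and 26 lower on the late days. These are 1.26%, 1.03% and 0.228% of the genes tested. For 106 of the 143 the 4 late arrays did not overlap the 4 middle arrays, against 4.69% of all genes tested. The 143 were called on these same arrays, which in part fixes the lack of overlap. At least 2-fold changes were seen in 51 risen (0.448%) and 9 fallen genes (0.079%) among the 143. The genes with the largest rises belonged to cell adhesion (Cdh1, Epcam), tubule transcription (Pou3f3, Emx2), cilia (Dcdc2), the cell surface (Tspan8) and retinoic acid synthesis (Aldh1a1). The largest falls were of an embryonic globin (Hbe1), a matrix protease (Mmp3) and the genes Mbnl3 and Fndc3c1. In the plot of fold change against adjusted p these genes form the outer left and right edges.

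**Figure D1:**
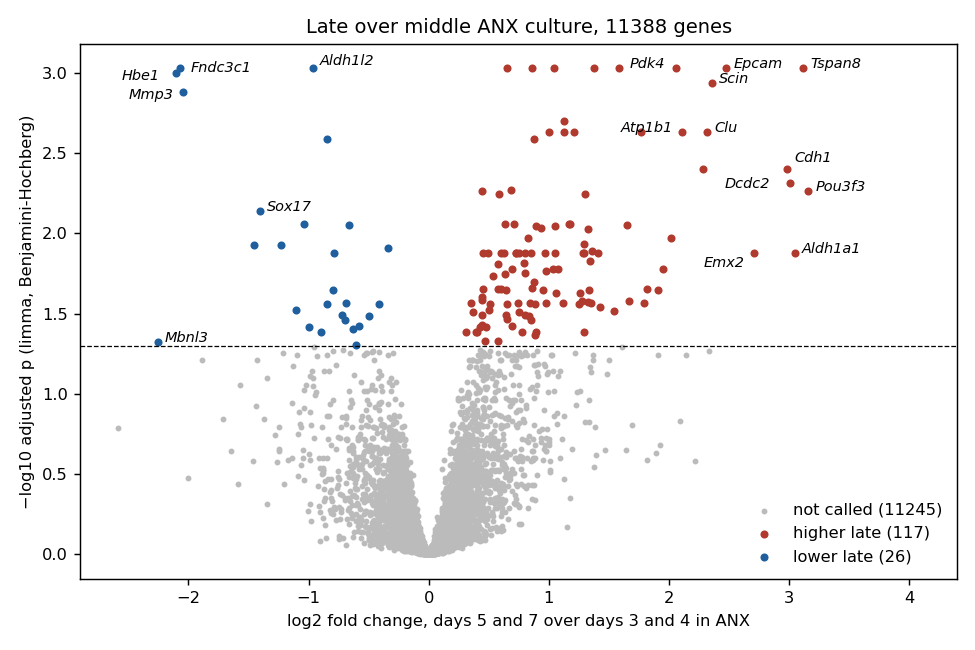
Each point is 1 of the 11388 genes, with the log2 fold change of late over middle ANX culture on the horizontal axis and −log10 of the limma adjusted p on the vertical axis (dashed line, adjusted p of 0.05). The 117 risen genes reach a log2 change of 3.16 (Pou3f3) and the 26 fallen genes reach -2.26 (Mbnl3).

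Single arrays carried much of this count. It was 444 without day 3 replicate 1, 225 without day 5 replicate 1, 89 without day 3 replicate 2, 37 without day 4 replicate 1 and 31 without day 5 replicate 2. Of the 117 risen genes 113 were above all 4 middle arrays on day 5 replicate 2 and 87 on day 5 replicate 1, while 116 and 117 were so on the day 7 arrays. Over all genes tested these shares were 25.5% and 13.5% on the day 5 arrays and 17.3% and 19.9% on day 7 replicates 1 and 2, and the risen genes were chosen by these same arrays. The fit took its error from the spread in all 21 groups, and limma on the 8 arrays alone as 2 groups called 0 genes, with 922 (8.1%) at an unadjusted p under 0.05. Without the 2 arrays of high spike-in ratio, an alternative added after seeing the data, 65 genes were called, 53 of them among the 143. Of the 50 called genes printed here 23 lost their call that way (adjusted p 0.0507 to 0.249), none changed sign, and for 1, Pkp2, the change moved by over 1.5 times. Their values are given with each group of genes as changes without those 2 arrays.

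Genes of epithelial adhesion were the largest group of called members among the lists. Of 25 tested genes of an epithelial junction and keratin list 8 rose and 0 fell, where 1.03% and 0.228% of all genes tested did. In the list 24 had a positive change, and the median change was 0.75 log2, against -0.01 for all genes tested. At an unadjusted p under 0.05 (limma) the list held 18 genes, against 13% of all genes tested. The 8 risen genes were Cdh1, Epcam, Cdh16, Cldn3, Dsp, Pkp2, Spint1 and Spint2. They cover adherens junctions, desmosomes and tight junctions as well as membrane inhibitors of epithelial serine proteases. The keratins of simple epithelium had changes of 1.07 (Krt8), 0.75 (Krt18) and 0.61 (Krt19) and did not pass the test. The tight junction scaffold Tjp1 had a change of -0.13, the negative value of the list. Cldn7, Cldn8, Ocln and Tjp3 lay below the signal threshold on all 8 arrays. The 8 members were singled out of the list by the test, and Cldn3, Dsp, Pkp2 and Spint1 are outside the naming rule and were chosen after their values were seen.

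The promoters of 3 risen epithelial genes are shown as examples of genes that rose in the same interval. Each sequence is the 250 bases before the annotated start of the gene, 5′ to 3′ on the gene's strand, from RefSeq on the rat build GRCr8, and the RefSeq table held 109 of the 143 called genes. A set of 3 motifs was searched on both strands, with no overlap between matches in these sequences: the E-box CAGGTG bound by Snail and Zeb repressors of E-cadherin, the grainyhead half-site AACCGG and the HNF1 half-site GTTAAT. Capitals mark the matches. Epcam lies at chr6:12649679-12649928 on the minus strand, Spint2 at chr1:93708092-93708341 on the minus strand and Dcdc2 at chr17:40458791-40459040 on the minus strand.
Epcam: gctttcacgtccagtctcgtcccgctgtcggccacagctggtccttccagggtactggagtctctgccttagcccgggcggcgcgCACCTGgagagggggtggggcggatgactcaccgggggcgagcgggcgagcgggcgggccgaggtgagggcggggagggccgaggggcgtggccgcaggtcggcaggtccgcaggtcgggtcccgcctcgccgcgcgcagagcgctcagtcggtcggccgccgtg
Spint2: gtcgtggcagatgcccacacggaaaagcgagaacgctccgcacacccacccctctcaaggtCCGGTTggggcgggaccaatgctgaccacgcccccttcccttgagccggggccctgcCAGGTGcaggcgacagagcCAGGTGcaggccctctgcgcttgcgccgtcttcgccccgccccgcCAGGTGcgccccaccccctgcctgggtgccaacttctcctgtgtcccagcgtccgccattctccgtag
Dcdc2: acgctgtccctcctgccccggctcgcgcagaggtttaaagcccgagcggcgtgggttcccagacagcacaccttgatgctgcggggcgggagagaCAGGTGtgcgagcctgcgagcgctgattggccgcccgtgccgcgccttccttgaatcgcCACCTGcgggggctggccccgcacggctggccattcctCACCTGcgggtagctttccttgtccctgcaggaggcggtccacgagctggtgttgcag

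The Epcam window held 1 E-box match, which begins 165 bases upstream of the start. Spint2 held 3 E-box matches, at 132, 113 and 68 bases upstream, and 1 grainyhead match at 189 bases. Dcdc2 held 3 E-box matches, at 155, 96 and 58 bases. The 3 windows shown were not drawn as a sample of the risen genes, and each holds E-box letters. Among other risen genes Cldn3, Dsp and Spint1 held 1 E-box match each, and Tspan8, Scin, Aldh1a1, Aldh1a3 and Pdk4 held none. The E-box letters occurred in 27.2% of 92 promoters of risen genes, in 14.8% of 10568 promoters of tested genes and in 15.9% of all 33469 promoters in the table. The grainyhead letters occurred in 8.70%, 9.24% and 5.67% of these sets, and the HNF1 letters in 4.35%, 3.60% and 6.45%. No test was made of these shares, and a match describes the letters of a window and shows no binding.

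Cdh1 encodes E-cadherin, the calcium-dependent adhesion molecule of adherens junctions. Its log2 intensity was 4.21 and 3.94 on day 3, 4.27 and 4.43 on day 4, 4.65 and 7.00 on day 5, and 8.54 and 8.59 on day 7. The middle arrays were all below the signal threshold, both day 7 arrays and day 5 replicate 2 were far above it, and day 5 replicate 1 stood just above the middle arrays without overlap. Cdh1 rose by 2.98 (SE 0.53, adjusted p = 0.00398), or by 1.41 when day means below the threshold are set to it. The call ended without day 5 replicate 2 (adjusted p = 0.0569).

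Epcam encodes an epithelial cell adhesion molecule found on ureteric bud and early tubule cells. It read 6.16 and 5.47 on day 3, 6.71 and 7.28 on day 4, 7.39 and 8.21 on day 5, and 9.56 and 10.35 on day 7. Its values were higher on day 4 than on day 3 and higher again on days 5 and 7, and the groups did not overlap. Epcam rose by 2.48 (SE 0.36, adjusted p = 0.000936), a call that held without any single array of the 8 (adjusted p up to 0.0111).

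Cdh16, the kidney-specific Ksp-cadherin of tubular epithelium, read 6.86 and 6.70 on day 3, 6.76 and 6.74 on day 4, 6.87 and 8.14 on day 5, and 9.92 and 10.19 on day 7. On day 5 replicate 1 and the 4 middle arrays it was nearly level, and the other 3 late arrays were clearly higher, without overlap. It rose by 2.02 (SE 0.40, adjusted p = 0.0107), and the call ended without day 4 replicate 1 or day 5 replicate 2 (adjusted p 0.0578 to 0.11). Spint2, a membrane-bound inhibitor of serine proteases such as matriptase, read 9.77 and 8.85 on day 3, 9.89 and 9.61 on day 4, 10.08 and 10.96 on day 5, and 11.11 and 10.68 on day 7. All late arrays lay above all middle arrays. It rose by 1.18 (SE 0.23, adjusted p = 0.00871), and the call ended without day 3 replicate 2 or day 5 replicate 2 (adjusted p 0.0588 to 0.103). The change without the 2 arrays of high spike-in ratio was 1.94 for Cdh16 (adjusted p = 0.0863) and 1.21 for Spint2 (adjusted p = 0.0507).

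Desmosomal genes were among the risen genes too. Ppl, which encodes the desmosome-associated protein periplakin and was chosen after its values were seen, read 5.66 and 5.35 on day 3, 5.94 and 6.06 on day 4, 6.10 and 6.75 on day 5, and 7.67 and 7.98 on day 7. Its groups did not overlap, and it rose by 1.37 (SE 0.21, adjusted p = 0.000936) with every one of the 8 arrays left out in turn still giving a call. Dsp (desmoplakin) changed by 1.66 (SE 0.38, adjusted p = 0.0265), with day 5 replicate 1 (6.45) inside the middle range of 5.87 to 6.55. Pkp2 (plakophilin) changed by 0.75 (SE 0.18, adjusted p = 0.0311), mostly below the signal threshold, and by 0.48 without day 7 replicate 2. The tight junction protein gene Cldn3 changed by 1.07 (SE 0.23, adjusted p = 0.0166) and the protease inhibitor gene Spint1 by 0.97 (SE 0.20, adjusted p = 0.0132). The calls of these 4 genes ended when single arrays were left out. Dsp lost its call without day 3 replicate 2, either day 4 replicate, day 5 replicate 2 or day 7 replicate 2 (adjusted p 0.0531 to 0.19). Pkp2 lost it without day 3 replicate 2, either day 4 replicate, either day 5 replicate or day 7 replicate 2 (adjusted p 0.0709 to 0.176). Cldn3 lost it without day 3 replicate 2, day 4 replicate 1, day 5 replicate 2 or day 7 replicate 2 (adjusted p 0.0558 to 0.145). Spint1 lost it without day 3 replicate 2, day 4 replicate 1 or day 5 replicate 2 (adjusted p 0.0578 to 0.122). With day means floored at the threshold the changes of Pkp2 and Spint1 were 0.27 and 0.53. The change without the 2 arrays of high spike-in ratio was 1.63 for Dsp (adjusted p = 0.14), 0.50 for Pkp2 (adjusted p = 0.249), 1.06 for Cldn3 (adjusted p = 0.106) and 0.99 for Spint1 (adjusted p = 0.0719).

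**Figure D2:**
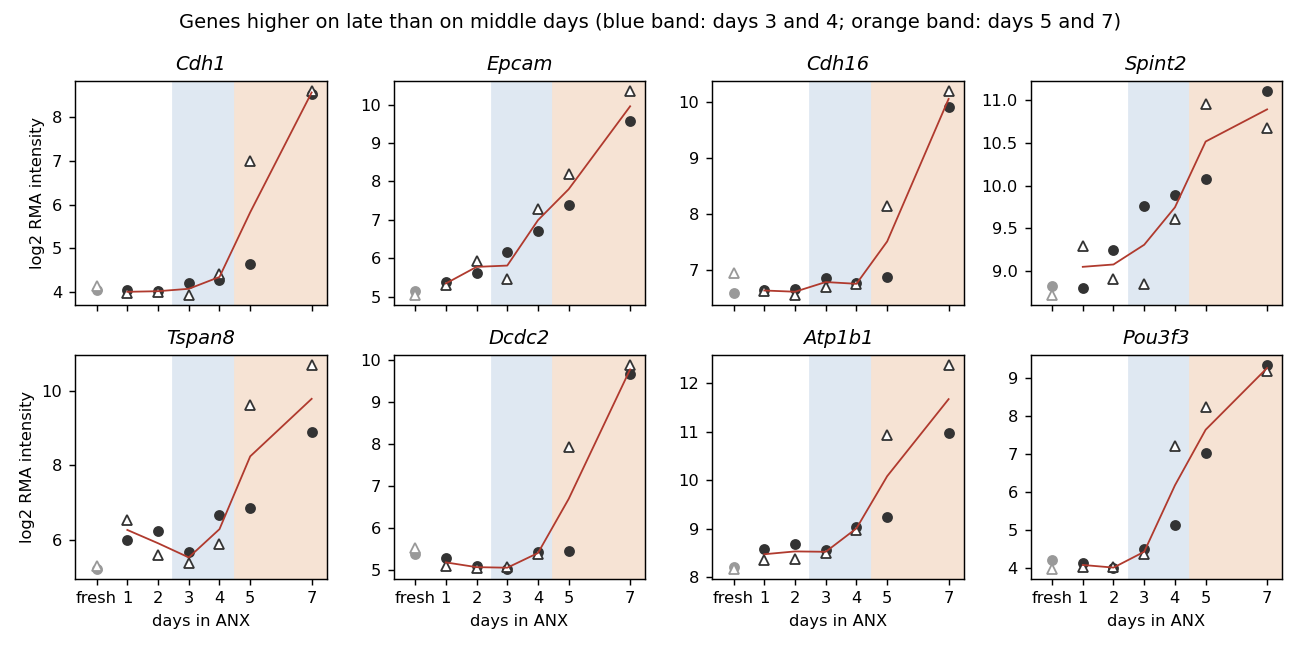
Log2 RMA intensity of 8 risen genes on the fresh arrays and each ANX array by day (filled circles, replicate 1; open triangles, replicate 2; line, day mean). Cdh1, Cdh16 and Dcdc2 stay near their fresh level through day 4 and are high on both day 7 arrays, while Epcam and Pou3f3 are already higher on day 4 than on day 3.

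Other called genes with roles in epithelial cells, which belonged to no list, included the pump subunit gene Atp1b1, the cilia gene Dcdc2 and the actin-severing gene Scin. Atp1b1, the beta subunit of the sodium-potassium ATPase that drives tubular transport, read 8.56 and 8.49 on day 3, 9.03 and 8.98 on day 4, 9.23 and 10.93 on day 5, and 10.97 and 12.36 on day 7. Day 5 replicate 1 was just above the highest middle array, and the other 3 late arrays were far above it. Atp1b1 rose by 2.11 (SE 0.35, adjusted p = 0.00232) and kept its call without any single array. Fxyd2, the gamma subunit that modulates the same pump in kidney and chosen after its values were seen, changed by 1.95 (SE 0.42, adjusted p = 0.0166). The day 5 replicate 1 value of Fxyd2 (6.58) lay inside its middle range of 6.06 to 6.72, and the call ended without day 3 replicate 2, either day 4 replicate, day 5 replicate 2 or day 7 replicate 2 (adjusted p 0.051 to 0.181). The change without the 2 arrays of high spike-in ratio was 1.75 for Atp1b1 (adjusted p = 0.0507) and 1.53 for Fxyd2 (adjusted p = 0.18).

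Dcdc2 encodes a doublecortin-domain protein of cilia and microtubules. It read 5.02 and 5.07 on day 3, 5.42 and 5.37 on day 4, 5.45 and 7.91 on day 5, and 9.67 and 9.87 on day 7. The middle arrays and day 5 replicate 1 were all below the signal threshold, and the other 3 late arrays were above it. It rose by 3.01 (SE 0.54, adjusted p = 0.00483), or by 2.44 with day means floored at the threshold, and the call ended without day 5 replicate 2 (adjusted p = 0.0657). Without the 2 arrays of high spike-in ratio its change was 2.94 (adjusted p = 0.053). Tspan8, a tetraspanin of epithelial cell surfaces, read 5.67 and 5.38 on day 3, 6.68 and 5.89 on day 4, 6.86 and 9.63 on day 5, and 8.89 and 10.70 on day 7. It was high on day 5 replicate 2 and both day 7 arrays, and day 5 replicate 1 was just above the highest middle array. Tspan8 rose by 3.12 (SE 0.47, adjusted p = 0.000936), with a call whichever array was left out.

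Scin encodes scinderin, a calcium-dependent protein that severs actin filaments. It read 4.16 and 3.98 on day 3, 4.03 and 4.15 on day 4, 4.48 and 5.06 on day 5, and 7.92 and 8.28 on day 7. The change lay between days 5 and 7: the day 5 arrays were below the threshold and both day 7 arrays were above it. Scin rose by 2.35 (SE 0.37, adjusted p = 0.00115), or by 1.16 with floored day means, and kept its call without any single array. Mal2, a membrane protein of apical transport, read 3.90 and 4.01 on day 3, 4.16 and 4.03 on day 4, 4.33 and 4.44 on day 5, and 6.59 and 7.33 on day 7. It rose by 1.65 (SE 0.32, adjusted p = 0.00884), or by 0.59 with floored day means, since the middle and day 5 arrays were all below the threshold. Its 4 late arrays lay above its 4 middle arrays, and the call ended without day 5 replicate 2 (adjusted p = 0.0582). The motor genes Myo6 and Myo5b and the microvillar bundler Pls1, chosen after their values were seen, changed by 1.06 (SE 0.24, adjusted p = 0.0236), 1.28 (SE 0.26, adjusted p = 0.0132) and 0.89 (SE 0.17, adjusted p = 0.00898). Myo6 lost its call without day 3 replicate 2, day 4 replicate 1, day 5 replicate 2 or day 7 replicate 2 (adjusted p 0.0893 to 0.19), Myo5b without day 4 replicate 1 or day 5 replicate 2 (adjusted p 0.0998 to 0.137) and Pls1 without day 3 replicate 2, day 4 replicate 1 or day 5 replicate 2 (adjusted p 0.0588 to 0.077). The change without the 2 arrays of high spike-in ratio was 1.43 for Mal2 (adjusted p = 0.107), 1.06 for Myo6 (adjusted p = 0.113) and 0.89 for Pls1 (adjusted p = 0.0556).

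The secreted protein genes Clu and Spp1 rose as well. Clu encodes clusterin, an extracellular chaperone. It read 9.10 and 9.06 on day 3, 9.03 and 9.77 on day 4, 10.59 and 12.69 on day 5, and 11.46 and 11.49 on day 7. The groups did not overlap, and day 5 replicate 2 was the highest array. Clu rose by 2.32 (SE 0.39, adjusted p = 0.00232) with a call whichever array was left out. Spp1 encodes osteopontin, a secreted phosphoprotein of tubule epithelium and other cells. It read 9.48 and 11.37 on day 3, 10.15 and 11.42 on day 4, 11.86 and 13.07 on day 5, and 12.45 and 12.66 on day 7. All late arrays were above all middle arrays, whose own spread was wide, and Spp1 rose by 1.91 (SE 0.43, adjusted p = 0.0226), a call that ended without day 3 replicate 1, day 4 replicate 1, day 5 replicate 2 or either day 7 replicate (adjusted p 0.0503 to 0.19). Without the 2 arrays of high spike-in ratio its change was 2.17 (adjusted p = 0.0558).

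Among transcription factors, 3 rose that are known from tubule or duct segments, and the regulators of induction did not pass the test. Pou3f3 (Brn1), a POU-domain factor needed for the loop of Henle and distal tubule, read 4.48 and 4.36 on day 3, 5.13 and 7.21 on day 4, 7.03 and 8.25 on day 5, and 9.34 and 9.20 on day 7. Day 4 replicate 2 (7.21) lay above day 5 replicate 1 (7.03), so the groups overlapped by these arrays, and the other 3 middle arrays were below the signal threshold. Pou3f3 rose by 3.16 (SE 0.58, adjusted p = 0.00547), or by 2.48 with floored day means, and the call ended without day 4 replicate 1 or day 5 replicate 2 (adjusted p 0.0583 to 0.0614). Emx2, a homeobox factor needed for ureteric bud and nephron formation, read 3.82 and 5.21 on day 3, 4.52 and 7.13 on day 4, 6.82 and 7.70 on day 5, and 8.48 and 8.50 on day 7. It too was high on day 4 replicate 2 and overlapped by that array, and it rose by 2.71 (SE 0.57, adjusted p = 0.0132), a call that ended without day 4 replicate 1 or day 5 replicate 2 (adjusted p 0.111 to 0.145). Tfap2b, an AP-2 factor of distal tubule and collecting duct, rose by 1.55 (SE 0.37, adjusted p = 0.0305) from values that were below the threshold on every middle array, or by 0.88 with floored day means. The call ended without day 3 replicate 2, either day 4 replicate, day 5 replicate 2 or day 7 replicate 1 (adjusted p 0.0718 to 0.2), and without the 2 arrays of high spike-in ratio the change was 1.69 (adjusted p = 0.0983).

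Pou3f3 was the called member among 6 tested genes of a loop of Henle and distal tubule list, whose median change was 0.25. Of all genes tested 1.26% were called. Umod, Slc12a3 and Kcnj1, products of mature distal segments, lay below the signal threshold on all 8 arrays. Slc12a1, the sodium-potassium-chloride cotransporter of the loop of Henle, read 3.42 and 3.31 on day 3, 3.29 and 3.34 on day 4, 3.38 and 3.56 on day 5, and 5.15 and 8.95 on day 7. Its day 7 replicate 2, an array of high spike-in ratio, was the array above the threshold, and its change of 1.92 (adjusted p = 0.207) was not called. That array was the highest of the 8 for 5 of the 6 list members. Its share of highest values over all genes was not counted, and for 19.9% of all genes tested it was above all 4 middle arrays. Emx2 and Tfap2b, with the water channel gene Aqp3, were 3 risen of 9 tested genes of a ureteric bud and collecting duct list whose median change was -0.02, where 1.03% of all genes tested rose. Aqp3 changed by 0.97 (SE 0.21, adjusted p = 0.0171), or by 0.24 with floored day means, and its call ended without day 3 replicate 2, either day 4 replicate, day 5 replicate 2 or day 7 replicate 1 (adjusted p 0.0578 to 0.11); without the 2 arrays of high spike-in ratio its change was 0.98 (adjusted p = 0.0951). The summed intensity of that list was 642.5 to 816.8 on the middle arrays and 749.3 to 1232 on the late arrays. Of its defining markers Ret and Wnt11 had changes of -0.26 and -0.02 and were not called, and Calb1, Aqp2 and Elf5 were below the threshold on all 8 arrays. Gata3, a transcription factor gene known from the bud and collecting duct, read 5.04 and 6.21 on day 3, 5.63 and 5.94 on day 4, 5.43 and 5.11 on day 5, and 7.00 and 7.19 on day 7. Both day 7 arrays were above all middle arrays and both day 5 arrays were not, and its change of 0.48 (adjusted p = 0.546) was not called. The part of ureteric bud cells in these rises was not tested. In bulk tissue more cells of a type and more RNA per cell cannot be told apart, which holds for every rise and fall given here.

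The induction regulators lay above the signal threshold on the middle days already. Pax2 changed by 0.57 (SE 0.32, adjusted p = 0.474), Pax8 by 0.39 (SE 0.31, adjusted p = 0.667), Lhx1 by 0.64 (SE 0.28, adjusted p = 0.33) and Wnt4 by -0.31 (SE 0.39, adjusted p = 0.818). None of these 4 passed the test, and in each the late and middle arrays overlapped. Wt1 (0.28), Ncam1 (0.38), the epithelial iron-carrier gene Lcn2 that encodes NGAL (0.35), Vim (-0.29) and the bud attractant Gdnf (-0.25) were not called either. Of 13 tested genes of an early induction list 0 passed limma's test (7 at an unadjusted p under 0.05), with a median change of 0.33, and of 13 nephron progenitor genes 0 passed it (1 unadjusted), with a median of 0.14. Of all genes tested 13% had an unadjusted p under 0.05, so the share in the induction list was above that of all genes and the share in the progenitor list below it.

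Few genes of mature nephron segments were called. Plce1, a phospholipase of podocytes, was the called member of 7 tested podocyte genes, where 1.26% of all genes tested were called. Plce1 changed by 1.27 (SE 0.29, adjusted p = 0.0265), with Nphs1 below the threshold on all 8 arrays. The late and middle arrays of Plce1 overlapped. Its means on days 1 and 2 were 7.63 and 7.32 without inducer and 6.94 and 6.91 in ANX. In ANX they were then 5.47 on day 3, 6.56 on day 4, 7.06 on day 5 and 7.53 on day 7. Its call ended without day 3 replicate 2, day 4 replicate 1, day 5 replicate 2 or either day 7 replicate (adjusted p 0.055 to 0.205), and without the 2 arrays of high spike-in ratio its change was 1.41 (adjusted p = 0.0735). At an unadjusted p under 0.05 (limma) the 16 tested proximal tubule genes held 3, against 13% of all genes tested. Of these 16 genes 0 passed at an adjusted p under 0.05, and the median change was 0.004. In 6 of them day 7 replicate 2, an array of high spike-in ratio, was the highest of the 8 arrays, in 4 by more than 1 log2. In these 4 it read 8.06 for the nuclear receptor gene Hnf4a, 7.59 for the gluconeogenic enzyme gene Pck1, 8.44 for Ggt1 of the brush border and 8.19 for the amino acid transporter gene Slc3a1, where day 7 replicate 1 read 5.15, 5.22, 6.66 and 6.47. The summed intensity of the list was 2038.1 to 2827.2 on the middle and 1937.7 to 4018 on the late arrays. Over all genes tested day 7 replicate 2 was above all 4 middle arrays for 19.9%. How often it was the highest of all 8 arrays was not counted over all genes, so the 6 of 16 cannot be set against such a share. The 4 genes were chosen after their values were seen, and the part of the spike-in ratio in them was not tested. In the plot of list members the epithelial list stands to the right of the dashed median of all genes. The loop of Henle and distal tubule list has 1 called point, the ureteric bud and collecting duct list 3 and the proximal tubule list 0.

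**Figure D3:**
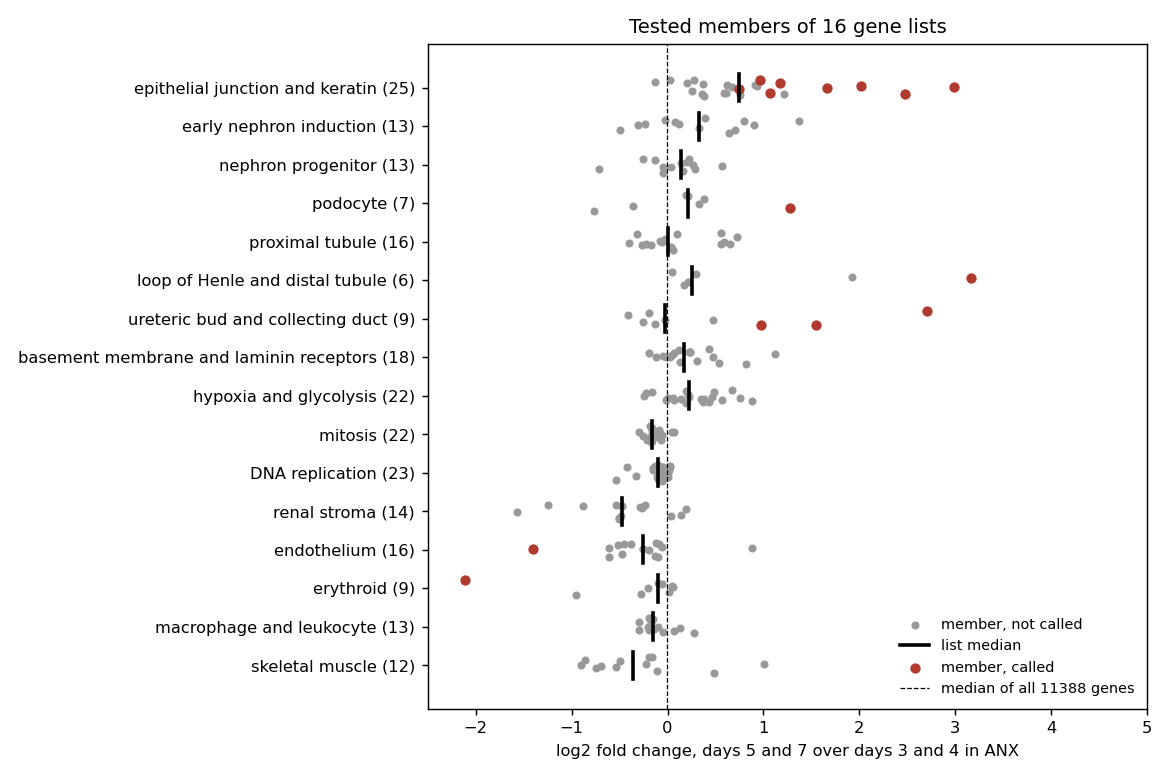
Each point is a tested member of 1 of 16 gene lists (number tested in brackets), with its log2 fold change of late over middle ANX culture. Red points passed the test, black bars are list medians and the dashed line is the median of all genes. The epithelial list has 8 called members and a median of 0.75, and the stromal list has none and a median of -0.48.

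Enzymes that make retinoic acid, a signal that patterns the kidney, were among the largest rises. Aldh1a1 read 4.06 and 4.93 on day 3, 4.86 and 6.98 on day 4, 7.15 and 7.81 on day 5, and 8.48 and 9.58 on day 7. Every late array was above every middle array, although day 4 replicate 2 (6.98) came close to the lowest late array (7.15). Aldh1a1 rose by 3.05 (SE 0.64, adjusted p = 0.0132), or by 2.40 with floored day means, and the call ended without day 4 replicate 1, day 5 replicate 2 or day 7 replicate 2 (adjusted p 0.0661 to 0.137). Its relative Aldh1a3 read 5.47 and 5.89 on day 3, 5.46 and 6.28 on day 4, 6.79 and 6.98 on day 5, and 9.27 and 9.21 on day 7. The groups did not overlap and both day 7 arrays were far above the day 5 arrays. Aldh1a3 rose by 2.29 (SE 0.41, adjusted p = 0.00398), with a call whichever array was left out. The stromal enzyme of the same reaction, Aldh1a2, had a change of -0.26 and was not called.

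Igfbp7, Bambi, Nrtn and Nog, which encode secreted or surface proteins that act in signalling, were also called. Igfbp7, which binds insulin-like growth factors, read 8.51 and 9.69 on day 3, 8.88 and 8.99 on day 4, 9.94 and 11.05 on day 5, and 10.78 and 11.57 on day 7. It rose by 1.82 (SE 0.41, adjusted p = 0.0223), without overlap. Its call ended without day 3 replicate 1, either day 4 replicate, day 5 replicate 2 or day 7 replicate 2 (adjusted p 0.051 to 0.181), and without the 2 arrays of high spike-in ratio its change was 1.65 (adjusted p = 0.153). Bambi, a decoy receptor of the TGF-beta family, rose by 0.88 (SE 0.15, adjusted p = 0.00259) and Nrtn, a ligand of the GDNF family, by 0.65 (SE 0.10, adjusted p = 0.000936). In both the groups did not overlap and the call held whichever array was left out. Nog, the secreted BMP antagonist noggin, changed by 1.36 (SE 0.28, adjusted p = 0.0129), a call that ended without day 3 replicate 2, day 4 replicate 1, day 5 replicate 2 or day 7 replicate 1 (adjusted p 0.0578 to 0.0764). Bambi, Nrtn and Nog were chosen after their values were seen.

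Single genes of fuel use and of innate defence were called, while most members of the lists that bear on them were not. Of 15 tested genes of lipid storage and oxidation 0 rose and 1 fell, with a median change of 0.15. Of 7 complement and acute phase genes 1 rose, with a median of 0.15. Over all genes tested 1.03% rose and 0.228% fell. Of 15 interferon response genes 0 passed limma's test (6 at an unadjusted p under 0.05), with a median of -0.20. Of 15 NF-kB and chemokine genes 0 passed it (1 unadjusted), with a median of -0.32. The unadjusted share of all genes tested was 13%. Pdk4, a kinase that restrains pyruvate oxidation, read 6.06 and 5.64 on day 3, 6.40 and 6.67 on day 4, 7.82 and 8.50 on day 5, and 8.33 and 8.36 on day 7. The 4 late arrays lay between 7.82 and 8.50 and the 4 middle arrays between 5.64 and 6.67. Pdk4 rose by 2.06 (SE 0.28, adjusted p = 0.000936). It was 1 risen of 12 tested glucocorticoid targets, whose median change was 0.08, where 1.03% of all genes tested rose. The medium held dexamethasone on all days. Cpt1b, which imports fatty acids into mitochondria and was chosen after its values were seen, rose by 1.12 (SE 0.18, adjusted p = 0.002), and Fabp5, an intracellular fatty acid carrier, fell by 0.66 (SE 0.13, adjusted p = 0.00884). Pdk4 and Cpt1b kept their calls whichever array was left out, and Fabp5 lost its call without day 4 replicate 1, day 5 replicate 2 or day 7 replicate 1 (adjusted p 0.0553 to 0.0998).

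C3, the central complement component, read 5.03 and 5.17 on day 3, 4.77 and 5.16 on day 4, 6.20 and 6.53 on day 5, and 5.46 and 5.38 on day 7. Every late array was above every middle array and the day 5 arrays were the highest, so the level was lower again on day 7. C3 rose by 0.86 (SE 0.13, adjusted p = 0.000936), or by 0.29 with floored day means. RT1-N2, a class I major histocompatibility gene, read 6.07 and 4.92 on day 3, 5.80 and 6.29 on day 4, 8.48 and 7.68 on day 5, and 6.94 and 7.05 on day 7. It rose by 1.77 (SE 0.30, adjusted p = 0.00232), also with its highest values on day 5. Its probe set may detect closely related RT1 genes, so the gene behind the signal is uncertain. Both calls held whichever array was left out. Bcl6, a transcriptional repressor induced by STAT3, was the called member of 20 tested LIF and STAT3 response genes, where 1.26% of all genes were called. Bcl6 changed by 0.74 (SE 0.17, adjusted p = 0.0269), while the list's median change was -0.19. Its call ended without day 3 replicate 1, day 4 replicate 1, day 5 replicate 2 or day 7 replicate 1 (adjusted p 0.071 to 0.238). Of 13 tested macrophage and leukocyte genes 0 passed limma's test. At an unadjusted p under 0.05 there was 1, against 13% of all genes tested. Csf1r and Ptprc were below the threshold on all 8 arrays.

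Falls were fewer, and Hbe1, Sox17 and Lmo2 among them are known from blood or vessels. Hbe1, an embryonic beta-type globin, read 7.47 and 8.52 on day 3, 6.43 and 5.40 on day 4, 4.77 and 5.08 on day 5, and 4.79 and 4.76 on day 7, after 13.60 and 13.73 in fresh tissue. It declined through the culture and all 4 late arrays were below the signal threshold. Hbe1 fell by 2.11 (SE 0.32, adjusted p = 0.000995), or by 1.17 with floored day means, and kept its call without any single array. Globin genes are similar in sequence and the probe set may read related globins. Hbe1 was 1 fallen of 9 tested erythroid genes, where 0.228% of all genes tested fell. The list's summed intensity was 648.7 to 1004.7 on the middle arrays and 602.7 to 643.2 on the late arrays. Alas2 and Gata1 were below the threshold on all 8. The part of remaining blood cells in the fall was not tested.

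Sox17, a transcription factor of endothelium, read 5.41 and 6.03 on day 3, 6.49 and 6.37 on day 4, 5.49 and 4.17 on day 5, and 4.25 and 4.79 on day 7. Day 5 replicate 1 (5.49) lay inside the middle range, and the other 3 late arrays were below it. Sox17 fell by 1.40 (SE 0.27, adjusted p = 0.00727), or by 0.32 with floored day means, and the call ended without day 5 replicate 2 (adjusted p = 0.0876). It was 1 fallen of 16 tested endothelial genes, where 0.228% of all genes tested fell. At an unadjusted p under 0.05 (limma) the list held 4 genes, against 13% of all genes tested. Of the 16, 1 had a positive change, and the median was -0.25, against -0.01 for all genes tested. The list's summed intensity was 1629.5 to 2641.7 on the middle and 1568.5 to 1842.9 on the late arrays. The part of endothelial cell number in these values was not tested. Lmo2, a cofactor of blood and endothelial transcription, fell by 1.11 (SE 0.26, adjusted p = 0.0301) without overlap of the groups, and the call ended without day 3 replicate 2, day 4 replicate 1, either day 5 replicate or either day 7 replicate (adjusted p 0.0513 to 0.2); without the 2 arrays of high spike-in ratio the change was -1.33 (adjusted p = 0.0584). Cyyr1, a small membrane protein gene, fell by 1.04 (SE 0.20, adjusted p = 0.00871), or by 0.26 with floored day means, and its call ended without day 3 replicate 2 (adjusted p = 0.0588).

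Mmp3 encodes stromelysin, a protease that cleaves matrix proteins. It read 7.76 and 8.38 on day 3, 8.39 and 7.85 on day 4, 7.38 and 5.48 on day 5, and 5.49 and 5.84 on day 7. It was lowest in fresh tissue and on day 1, highest on days 3 and 4, and on day 5 replicate 2 and both day 7 arrays it was below or near the signal threshold. Mmp3 fell by 2.05 (SE 0.32, adjusted p = 0.00132) and was 1 fallen of 17 tested matrix proteases and inhibitors, whose median change was -0.33. Of all genes tested 0.228% fell. Aldh1l2, a mitochondrial enzyme of folate metabolism, read 7.81 and 7.93 on day 3, 7.82 and 7.58 on day 4, 6.78 and 6.57 on day 5, and 7.11 and 6.83 on day 7. The late arrays lay between 6.57 and 7.11 and the middle arrays between 7.58 and 7.93. Aldh1l2 fell by 0.96 (SE 0.14, adjusted p = 0.000936). Col26a1, a collagen gene, fell by 0.84 (SE 0.14, adjusted p = 0.00259). Fndc3c1, which encodes a protein with fibronectin domains, read 5.69 and 6.77 on day 3, 6.27 and 6.04 on day 4, 4.94 and 3.69 on day 5, and 3.72 and 4.15 on day 7, and its late arrays were all below the signal threshold. It fell by 2.07 (SE 0.29, adjusted p = 0.000936). With floored day means Fndc3c1 fell by 0.41. In each of these 4 genes the groups did not overlap and the call held whichever array was left out.

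Prickle1, Nrg1 and Mbnl3 fell without overlap of the groups, but their calls ended when single arrays were left out. Prickle1, a planar cell polarity gene, fell by 0.85 (SE 0.20, adjusted p = 0.0275), and lost its call without day 3 replicate 2, either day 4 replicate, day 5 replicate 2 or day 7 replicate 1 (adjusted p 0.0879 to 0.15). Nrg1, a ligand of ErbB receptors, fell by 1.00 (SE 0.25, adjusted p = 0.0382), by 0.58 without day 3 replicate 2, and lost its call without day 3 replicate 2, either day 4 replicate, day 5 replicate 2 or either day 7 replicate (adjusted p 0.0634 to 0.251). Mbnl3, a regulator of RNA splicing, read 5.15 and 8.91 on day 3, 6.35 and 7.01 on day 4, 5.05 and 4.41 on day 5, and 3.92 and 5.00 on day 7, with day 3 replicate 1 (5.15) far below the other middle arrays. It fell by 2.26 (SE 0.57, adjusted p = 0.0474), by 1.07 with floored day means and by 1.32 without day 3 replicate 2, and lost its call without day 3 replicate 2, either day 4 replicate, either day 5 replicate or either day 7 replicate (adjusted p 0.0526 to 0.218). Its late arrays were all below the signal threshold. Without the 2 arrays of high spike-in ratio the change was -0.95 for Prickle1 (adjusted p = 0.0684), -1.03 for Nrg1 (adjusted p = 0.142) and -2.36 for Mbnl3 (adjusted p = 0.144).

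**Figure D4:**
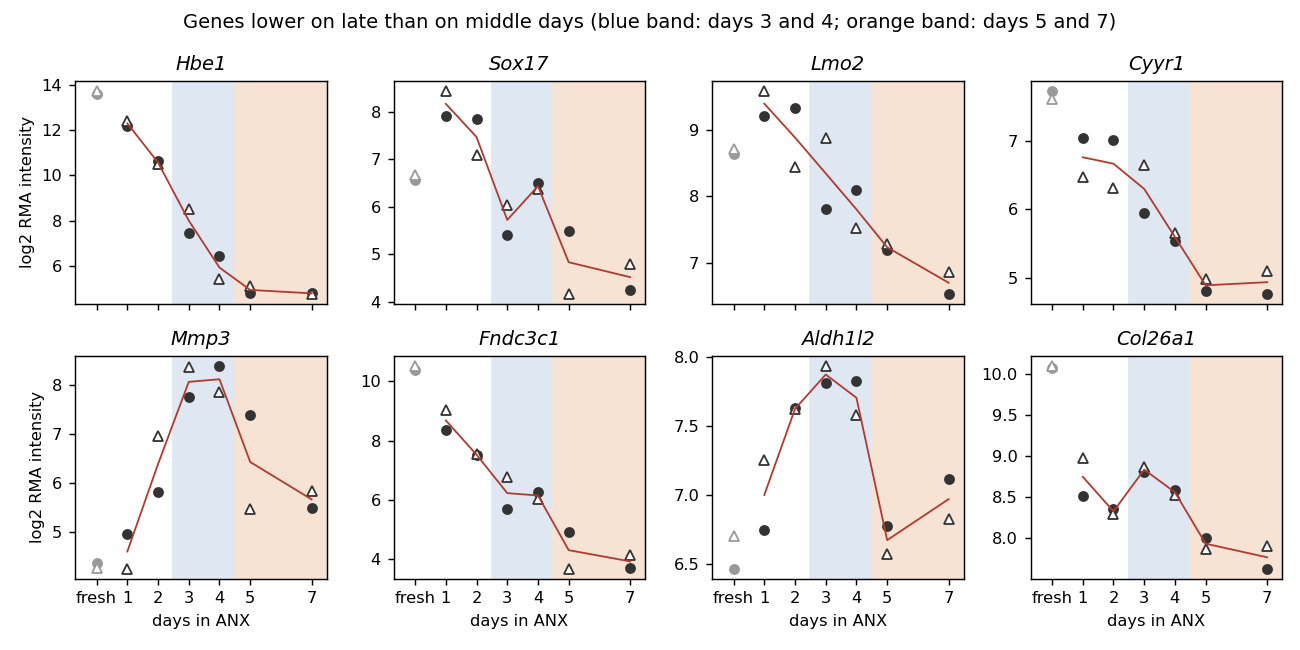
Log2 RMA intensity of 8 fallen genes on the fresh arrays and each ANX array by day (filled circles, replicate 1; open triangles, replicate 2; line, day mean). Hbe1 and Fndc3c1 decline from the fresh level onward, while Mmp3 and Aldh1l2 are higher on days 3 and 4 than in fresh tissue and lower again on days 5 and 7.

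Lists of stromal, proliferative, muscle, glycolytic and basement membrane genes held 0 called members in limma's test, and at an unadjusted p under 0.05 they held 6 stromal, 1 mitosis, 2 DNA replication, 2 muscle, 7 glycolysis and 4 basement membrane genes. The share of all genes tested was 13%, so 6 of 14 stromal and 7 of 22 glycolysis genes were above it and 1 of 22 mitosis and 2 of 23 DNA replication genes below it, with no test made of these shares. The 14 tested stromal genes had a median change of -0.48, with 3 positive, and Penk (-1.57) and Pdgfra (-1.24) had the lowest values. Their summed intensity was 16581.2 to 33506.8 on the middle and 12925.3 to 17188.1 on the late arrays, so these ranges overlapped. Of 22 mitosis genes 2 and of 23 DNA replication genes 5 had a positive change, with medians of -0.16 and -0.10. The 12 tested skeletal muscle genes had a median of -0.36. The 22 genes of hypoxia and glycolysis had a median of 0.22, with 18 positive, and 18 genes of basement membrane and laminin receptors had a median of 0.17.

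The called genes were chosen for their late and middle levels, which in part fixes the order of their day means. Of the 117 risen genes 115 had a day 5 mean above the middle mean, 99 had a day 7 mean above that of day 5, and 104 had a day 4 mean above that of day 3, against 55.1%, 42.6% and 58.4% of all genes tested. Of the 26 fallen genes all 26 were below the middle mean on day 5 and 22 were lower on day 7 than on day 5, against 44.9% and 57.4% of all genes. Day 5 alone over the middle days called 7 genes, and day 7 alone called 248, which include 120 of the 143.

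Between days 5 and 7 of ANX culture 11 genes differed (0.0966% of those tested), 9 higher (0.079%) and 2 lower (0.0176%). Scin was higher on day 7 by 3.33 (SE 0.52, adjusted p = 0.00461) and Mal2 by 2.57 (SE 0.46, adjusted p = 0.0199). Sostdc1, a secreted inhibitor of BMP and Wnt signals, was chosen after its values were seen. It read 5.37 and 5.04 on day 3, 5.42 and 5.20 on day 4, 4.97 and 5.31 on day 5, and 7.16 and 8.24 on day 7. It was higher on day 7 by 2.56 (SE 0.32, adjusted p = 0.000332). Aqp3, a water and glycerol channel of collecting duct, read 4.36 and 4.34 on day 3, 4.29 and 4.03 on day 4, 4.10 and 4.26 on day 5, and 6.42 and 6.12 on day 7. It was higher on day 7 by 2.09 (SE 0.30, adjusted p = 0.00168). Both genes were below the signal threshold on every array of days 3, 4 and 5 and above it on both day 7 arrays. The sizes of these 2 differences therefore depend on background, and they were not computed with floored day means. The same holds for Scin and Mal2, whose day 5 means were 4.77 and 4.38. Flooring lowered the late over middle change from 1.17 to 0.96 for Sostdc1 and from 0.97 to 0.24 for Aqp3. Sostdc1 and Aqp3 kept the day 7 over day 5 call without any 1 of the 4 arrays, and Scin lost it without day 7 replicate 2 (adjusted p = 0.144). The late over middle change of Sostdc1 lost its call without the 2 arrays of high spike-in ratio, where it was 0.84 (adjusted p = 0.14).

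Igfbp1, another binding protein of insulin-like growth factors, read 5.22 and 4.92 on day 3, 5.15 and 5.12 on day 4, 4.79 and 5.57 on day 5, and 6.34 and 9.18 on day 7. It was higher on day 7 by 2.58 (SE 0.51, adjusted p = 0.0372), with the day 7 replicates far apart. Without day 7 replicate 2 its difference was 1.16, and the call also ended without either day 5 array (adjusted p 0.0897 to 0.825 over these 3). The apical proteins Mal and Muc1, chosen after their values were seen, were higher on day 7 by 1.26 (SE 0.23, adjusted p = 0.0207) and 1.16 (SE 0.21, adjusted p = 0.0242). The day 5 means of Igfbp1 (5.18) and Mal (5.02) were below the signal threshold, so the sizes of their differences depend on background. The late over middle change of Muc1 without the 2 arrays of high spike-in ratio was 0.64 (adjusted p = 0.118). Sod2, the mitochondrial superoxide dismutase, had a difference of -1.07 (SE 0.21, adjusted p = 0.0372) and C3 of -0.95 (SE 0.18, adjusted p = 0.0372). Mal2, Mal, Muc1, Sod2 and C3 lost these calls without day 7 replicate 2 and without day 5 replicate 2 (adjusted p 0.0586 to 0.797), Mal2 and Muc1 also without day 5 replicate 1, and Muc1, Sod2 and C3 also without day 7 replicate 1. The count was 29 without day 5 replicate 1, 4 without day 5 replicate 2, 47 without day 7 replicate 1 and 2 without day 7 replicate 2. Between days 3 and 4 limma called 0 genes, with 522 (4.58%) at an unadjusted p under 0.05.

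The same days were compared in culture with LIF, a cytokine of the interleukin 6 family, and with NGAL, the iron-binding protein that Lcn2 encodes. Neither shares a late or middle array with ANX. Late over middle called 19 genes in LIF (0.167%) and 126 in NGAL (1.11%). Of the 143 genes called in ANX 134 had a change of the same sign in LIF and 127 in NGAL, against 61.8% and 61.6% of all genes tested. Of these 12 were also called in LIF, which is 8.39% of the ANX calls and 63.2% of the LIF calls, and 31 in NGAL, which is 21.7% of the ANX and 24.6% of the NGAL calls. The risen genes had a median change of 0.89 in ANX, 0.45 in LIF and 0.36 in NGAL, and the fallen genes -0.85, -0.49 and -0.22. Because these genes were called in ANX, their larger medians in ANX follow in part from that choice.

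Epcam changed by 2.48 (SE 0.36) in ANX, 1.47 (SE 0.36) in LIF and 2.54 (SE 0.36) in NGAL. Cdh1 changed by 2.98, 1.78 and 1.99 (SE 0.53 each). Pou3f3 changed by 3.16, 2.23 and 3.08 (SE 0.58 each). The ANX minus LIF difference was 1.01 (SE 0.51) for Epcam, 1.20 (SE 0.75) for Cdh1 and 0.93 (SE 0.82) for Pou3f3, and the ANX minus NGAL difference was -0.06 (SE 0.51), 0.99 (SE 0.75) and 0.08 (SE 0.82). None of these 6 differences passed the test, which does not show that the inducers act alike. Over all genes the difference from LIF passed for 1 gene (0.00878%) and the difference from NGAL for 3 (0.0263%).

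The gene that differed from LIF was Aldh1l2, which fell in ANX while its change in LIF was 0.24 (SE 0.14). The difference was -1.21 (SE 0.20, adjusted p = 0.0342). It ranged from -1.34 to -1.07 with each of the 16 arrays left out. It was not called without either ANX replicate of day 3 or of day 4, or the second ANX replicate of day 5 or of day 7, nor without either LIF day 3 replicate or LIF day 4 replicate 2, day 5 replicate 2 or day 7 replicate 1 (adjusted p 0.0504 to 0.226).

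Hbe1, Mmp3 and Actn3 differed from NGAL. Hbe1 changed by -2.11 in ANX and by -5.04 (SE 0.32) in NGAL, a difference of 2.94 (SE 0.46, adjusted p = 0.0137). In NGAL its day means were 11.23 and 8.89 on days 3 and 4 and 5.11 and 4.91 on days 5 and 7, so the late days were below the signal threshold under both inducers and the middle days were higher in NGAL. The call ended without ANX day 4 replicate 2, ANX day 5 replicate 2 or NGAL day 5 replicate 1 (adjusted p 0.0644 to 0.0749). Mmp3 changed by -2.05 in ANX and 0.53 (SE 0.32) in NGAL, a difference of -2.58 (SE 0.46, adjusted p = 0.048). Its NGAL day means of 4.43 to 5.24 and LIF day means of 4.68 to 5.01 were all below the signal threshold, while ANX reached 8.39 on day 4 replicate 1.

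Actn3, an alpha-actinin of fast skeletal muscle fibres, was level in ANX (0.04, SE 0.18) and fell in NGAL by 1.38 (SE 0.18, adjusted p = 0.000299). The difference was 1.42 (SE 0.26, adjusted p = 0.048). The calls of Mmp3 and Actn3 both ended without either ANX replicate of day 4, or the second ANX replicate of day 3, day 5 or day 7, or NGAL day 4 replicate 2, day 5 replicate 1 or day 7 replicate 1. Mmp3 lost its call also without ANX day 7 replicate 1 or NGAL day 3 replicate 1 (adjusted p 0.0534 to 0.178 over its 10 arrays), and Actn3 without ANX day 5 replicate 1, NGAL day 3 replicate 2 or NGAL day 5 replicate 2 (adjusted p 0.0515 to 0.211 over its 11).

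**Figure D5:**
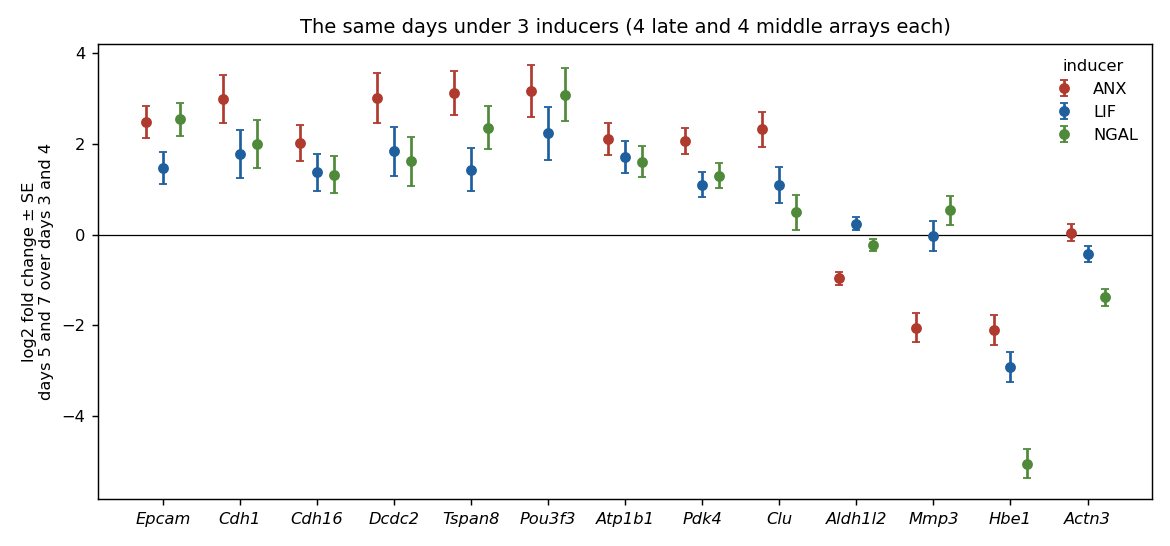
Log2 fold change of days 5 and 7 over days 3 and 4 for 13 genes under ANX, LIF and NGAL (points, limma estimate; bars, SE; 4 late and 4 middle arrays per inducer). The 9 risen genes are positive under all 3 inducers, and Aldh1l2, Mmp3, Hbe1 and Actn3 are the genes whose change differed from LIF or NGAL.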

How the data were processed

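Rat metanephric mesenchyme was measured on 42 Affymetrix arrays in 21 groups of 2 biological replicates. The deposited values are intensity values that the authors made with the robust multichip analysis (RMA), per the submitters' processing notes, which give no version. The lowest value was 7.6 and the highest 17972, array medians lay between 83.3 and 88.4, and log2 was taken here. For arrays the number of samples, not a read depth, limits precision. Of 31099 probe sets 20832 had 1 gene symbol, 436 several and 9831 none; of the genes tested 95 were read from probe sets that can bind related transcripts.

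Genes were tested with limma 3.58.1 in R 4.3.3 by a linear model of all 42 arrays with 1 mean for each of the groups, which leaves 21 residual degrees of freedom, empirical Bayes variances with a trend and Benjamini-Hochberg adjustment. Contrasts were the mean of days 5 and 7 minus the mean of days 3 and 4 in ANX, day 7 minus day 5, day 4 minus day 3, and the difference of the first contrast between inducers. A gene was called at an adjusted p under 0.05. The test was checked on simulated data whose errors were independent between genes and arrays. Such data do not hold deviations shared by many genes of an array.

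The groups compared, members and 37 gene lists (659 members, 512 tested) were chosen with earlier results of these data known. Genes were named by rule: the 14 largest called rises and falls without overlap, up to 4 called members per list, fixed anchor genes, and called genes of the other contrasts. Some genes that the rule took are left unprinted. Cdh6, an anchor gene, was below the signal threshold. Alternatives were other filters, normalization, probe set choices, variance models, array weights, days and left-out arrays.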

Additional observations from a re-analysis of the deposited data

Results flagged for a closer look

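Of 138 sets of 4 arrays (late and middle, in genes whose values are printed), 9 (6.52%) had 1 array standing apart by Dixon's criterion. Chance gives about 1 in 20 for 4 values from 1 distribution. Each set here pools 2 days, so 6.52% cannot be set against that rate. The genes of 5 of the 9 sets, Hnf4a, Pck1, Ggt1 and Slc3a1, were printed because 1 array stood high. Clu read 9.77 on ANX day 4 replicate 2 and 9.03 to 9.10 on the other middle arrays. Hbe1 read 5.08 on ANX day 5 replicate 2 and 4.76 to 4.79 on the other late arrays, all below the signal threshold. Wt1 read 10.47 on ANX day 7 replicate 2 and 11.13 to 11.23 on the other late arrays. Lcn2 read 7.67 on ANX day 4 replicate 1 and 8.17 to 8.25 on the other middle arrays. On ANX day 7 replicate 2 Hnf4a read 8.06 (5.14 to 5.35 on the other late arrays), Pck1 7.59 (5.05 to 5.22), Ggt1 8.44 (6.50 to 6.66) and Slc3a1 8.19 (6.47 to 6.53). Slc3a1 also read 6.94 on ANX day 4 replicate 2 and 6.12 to 6.14 on the other middle arrays. Day 4 replicate 2 and day 7 replicate 2 are the arrays of high spike-in ratio; the part of that ratio in the values of Clu, Wt1, Hnf4a, Pck1, Ggt1 and Slc3a1 was not tested.

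For 4 genes the late over middle change differed between inducers by a test of the difference itself. The difference from LIF was -1.21 for Aldh1l2. The difference from NGAL was 2.94 for Hbe1, 1.42 for Actn3 and -2.58 for Mmp3.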

How the results depend on the processing

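The count of 143 genes called late over middle was 113 to 163 without a filter or with a stricter one, with quantile normalization again, without the variance trend, and with the mean of the probe sets or all probe sets. It was 186 against day 3 alone, 8 against day 4 alone, 7 with day 5 alone and 248 with day 7 alone, 60 with a 2-fold minimum, 88 with array weights, 233 with the spike-in ratio as a covariate, 65 without the 2 arrays of high spike-in ratio, 4 with the 8 arrays alone and a mean per day, and 0 (922 unadjusted) with the 8 arrays as 2 groups. With each array left out it ran from 31 to 444. With the replicate number as a block it was 244, of which 143 were shared. Same-numbered arrays did not deviate together for every pair of days (correlations -0.014 to 0.498), so the numbers were not taken as pairs, and the block left the other 4 counts as they were. The 11 genes of day 7 over day 5 became 17 without a filter and 2 with the stricter filter, and 2 to 47 with arrays left out. Day 4 over day 3 gave 0 to 2 with arrays left out. The 1 gene differing from LIF became 2 without a filter and 0 to 5 with arrays left out, and the 3 differing from NGAL became 1 with the stricter filter and 0 to 16.

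Of 1438 values of 63 printed genes under the alternatives 1068 kept direction and call, 346 lost the call, 11 gained one and 13 changed sign. Of the 50 called genes 48 changed sign nowhere, and 18 stayed called whichever of the 8 arrays was left out. Among the called genes Sostdc1 (-0.11) and Aqp3 (-0.072) changed sign with day 5 alone. Uncalled genes that changed sign were Mal (-0.050) and Sod2 (0.22) with day 5 alone, Lcn2 with day 7 alone (-0.51), Wnt4 against day 3 (0.093) and without day 3 replicate 2 (0.064), Pax8 (-0.0030) and Ncam1 (-0.13) against day 4, and Ncam1 with the mean of its probe sets (-0.0089). Over the left-out arrays Wnt4 ran from -0.68 to 0.064. Actn3 was -0.076 without day 4 replicate 2, -0.13 without day 7 replicate 2 and -0.25 without both, and 0.21 at most with 1 array left out. The cause was not tested. The day 5 replicates stood apart in the risen genes and the day 4 replicates in Pou3f3 and Emx2. With 2 arrays a day 1 array could decide a difference between days. Between days 5 and 7 Sostdc1 and Aqp3 kept their calls without any 1 of the 4 arrays, and Muc1 lost its call without any 1 of them. For genes below the signal threshold the size of a fold depends on background.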
